A study of Mus musculus with 6 samples.

Results

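GABA-A receptors are the chloride channels opened by the transmitter GABA, and 7 of their subunit genes are described here across dorsal root ganglia of mice on 2 diets: the alpha genes Gabra2, Gabra3 and Gabra5, the beta genes Gabrb1 and Gabrb2, and the gamma genes Gabrg1 and Gabrg3. They were taken by gene symbol from a table of 54242 symbols and 140992 transcripts, in which they account for 26 transcripts. The 6 libraries were 3 replicates of mice on intermittent fasting for 10 days (fasted) and 3 replicates of mice fed ad libitum (fed). All were male C57bl/6 animals of 8-10 weeks, and the tissue was the ganglia at L4-6. The cells were dissociated with enzymes and enriched for neurons on an albumin gradient before RNA extraction. The animals were killed after 24 hours, and no label says what the 24 hours follow. Whether each library is from a single animal or from pooled animals is not stated, so the spread behind every p-value is one between libraries and may be technical.

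A GABA-A receptor is a ring of subunits around a pore, usually built of alpha, beta and gamma subunits. GABA binds between a beta and an alpha subunit, and benzodiazepines bind between an alpha and a gamma subunit. Sensory neurons of the dorsal root ganglion keep a high internal chloride concentration, so that GABA depolarises them. At their terminals in the spinal cord this depolarisation underlies presynaptic inhibition of sensory input.

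The subunits of 1 class are close relatives, and single codons mark the pharmacology of each class. Between the annotated proteins (translated from the main coding transcript of each gene, 451 to 492 codons), identity was 70.9% to 80.3% in the 5 pairs of the same class and 35.7% to 48.2% in the 16 pairs of different classes. Every one of the 7 held the cysteine pattern of the disulphide loop that names the Cys-loop receptor family. The stretches below are coding sequence from GENCODE release M21 (GRCm38), 5′ to 3′. In alpha subunits, a histidine in the benzodiazepine pocket makes a receptor sensitive to diazepam, and alpha subunits with arginine there are insensitive. Capitals mark that codon in the 3 alpha genes described here and in Gabra4, shown for contrast. The codon is histidine in the first 3 lines (codons 129, 154 and 136) and arginine in the last (codon 135).
Gabra2: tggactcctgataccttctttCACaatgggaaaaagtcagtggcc
Gabra3: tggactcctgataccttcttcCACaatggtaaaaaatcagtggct
Gabra5: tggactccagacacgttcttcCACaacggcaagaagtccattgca
Gabra4: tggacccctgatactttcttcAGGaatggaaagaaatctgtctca

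In beta subunits, a residue of the second membrane segment, which lines the pore, sets the sensitivity of recombinant receptors to the anaesthetic etomidate. Capitals mark its codon, which is serine in Gabrb1 (codon 290) and asparagine, the sensitive form, in Gabrb2 (codon 289).
Gabrb1: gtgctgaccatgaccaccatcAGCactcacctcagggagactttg
Gabrb2: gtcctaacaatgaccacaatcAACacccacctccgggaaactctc

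In gamma subunits, a residue facing the benzodiazepine pocket differs between both genes. Capitals mark its codon, which is isoleucine in Gabrg1 (codon 114), the gamma subunit with low benzodiazepine affinity, and phenylalanine in Gabrg3 (codon 97).
Gabrg1: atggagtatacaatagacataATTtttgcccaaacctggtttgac
Gabrg3: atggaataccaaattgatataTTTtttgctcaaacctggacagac

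A further pair of stretches carries the transcript results. The table splits Gabra2 and Gabrg1 each between a full coding transcript and one in which an internal exon begins later. Capitals mark the bases that the shorter transcript leaves out. For Gabra2 they are 61 bases at the start of exon 5 (chr5:71014576-71014636, minus strand), which shift the reading frame, and the annotation labels the shorter transcript as a target of nonsense-mediated decay. For Gabrg1 they are 123 bases at the start of exon 8 (chr5:70774360-70774482, minus strand). They keep the frame and hold 41 codons, among them the conserved core of the pore-lining second membrane segment.
Gabra2-203: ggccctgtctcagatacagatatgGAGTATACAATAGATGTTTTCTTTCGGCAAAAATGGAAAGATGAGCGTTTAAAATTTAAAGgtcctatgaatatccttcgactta
Gabrg1-201: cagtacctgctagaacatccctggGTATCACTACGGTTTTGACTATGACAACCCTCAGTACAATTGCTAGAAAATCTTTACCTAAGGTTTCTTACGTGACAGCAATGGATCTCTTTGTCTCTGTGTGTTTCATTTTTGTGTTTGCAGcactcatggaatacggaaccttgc

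The genes lie in clusters of the family. Gabrg1 (chr5:70751047-70842617), Gabra2 (chr5:70957597-71095849) and Gabrb1 (chr5:71658113-72149037) share a cluster on chromosome 5. Gabrg3 (chr7:56716465-57387188) and Gabra5 (chr7:57407672-57510059) are neighbours on chromosome 7, with 20483 bases between them. Gabrb2 lies on chromosome 11 (42419757 to 42629028) and Gabra3 on chromosome X (72432681 to 72656848). The annotated start of Gabrb1 overlaps Gabra4, its neighbour on the opposite strand, by 196 bases. The strand setting of the authors' quantification is not stated, so reads of those bases could belong to either gene.

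Values are TPM as the authors deposited them, transcript abundances scaled to the same total in every library, so they are per length and can be compared between genes. TPM keep no sequencing depth, so the counting error behind a value is unknown. A mean of 1 TPM or more was asked for before testing, which left 15097 symbols. One library stood apart: in fed replicate 2, 10 skeletal muscle markers summed to 4187 TPM, against 268.2 to 611.0 TPM in the other 5. That library was also the lowest of the 6 for 6 of the 7 subunit genes, all but Gabra5, and had the lowest sum of 14 pan-neuronal markers (19712 TPM, against 21307 to 22771 TPM in the others). The markers of neurons were abundant in every library.

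By the mean over all 6 libraries, Gabrg1 was the most abundant of the 7 genes and Gabrg3 the least. Gabrg1, the gamma-1 subunit, was at 30.2, 24.6 and 31.7 TPM in fasted libraries and 25.2, 23.3 and 29.2 TPM in fed ones. Gabra2, the alpha-2 subunit, was at 21.2, 21.4 and 22.5 TPM in fasted libraries and 21.7, 19.2 and 19.7 TPM in fed ones. Both pairs of groups overlapped. Averaged over the 6 libraries, Gabrg1 lay above 60.3% and Gabra2 above 53.4% of the tested genes, so both are of middling abundance in this tissue.

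**Figure D1:**
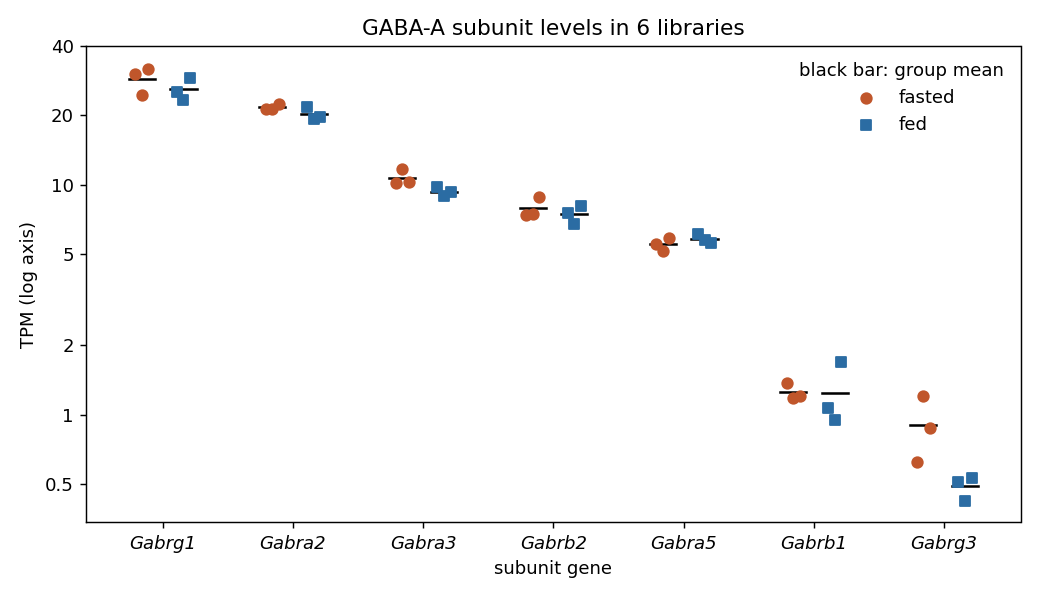
Level of each subunit gene in TPM (log axis) in the 3 fasted libraries (circles) and the 3 fed libraries (squares), with a black bar at the group mean, genes in order of mean level. The genes run from 27.4 TPM for Gabrg1 to 0.69 TPM for Gabrg3 over all 6 libraries, and the groups are apart for Gabra3 and Gabrg3.

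Gabra3, the alpha-3 subunit, was at 10.1, 11.7 and 10.2 TPM in fasted libraries and 9.74, 8.90 and 9.32 TPM in fed ones. All 3 fasted libraries were above all 3 fed ones. Gabrb2, the beta-2 subunit, was at 7.37, 7.48 and 8.86 TPM in fasted libraries and 7.55, 6.71 and 8.04 TPM in fed ones. Gabra5, the alpha-5 subunit, known in the brain for receptors outside synapses that carry tonic current, was at 5.5, 5.16 and 5.84 TPM in fasted libraries and 6.12, 5.75 and 5.55 TPM in fed ones. Both of these overlapped, with Gabrb2 highest in fasted replicate 3 and Gabra5 highest in fed replicate 1.

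Gabrb1, the beta-1 subunit, was at 1.37, 1.19 and 1.21 TPM in fasted libraries and 1.07, 0.95 and 1.70 TPM in fed ones. Its highest and lowest values were both from fed libraries. Gabrg3, the gamma-3 subunit, was at 0.62, 1.20 and 0.88 TPM in fasted libraries and 0.51, 0.42 and 0.53 TPM in fed ones, without overlap. Its mean of 0.69 TPM put it below the limit for testing.

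The order of the levels was stable from library to library. Gabrg1 exceeded Gabra2 in 6 of 6 libraries (1.15 to 1.48 times), Gabra2 exceeded Gabra3 in 6 of 6 (1.83 to 2.23 times), and Gabra3 exceeded Gabrb2 in 6 of 6 (1.16 to 1.57 times). Gabrb2 exceeded Gabra5 in 6 of 6 (1.17 to 1.52 times), and Gabra5 exceeded Gabrb1 in 6 of 6 (3.26 to 6.06 times). In each of these 5 steps the ranges over the 6 libraries did not overlap. Gabrb1 and Gabrg3 could not be ordered: Gabrb1 was the higher in 5 of 6 libraries and their ranges overlapped.

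The comparison of the diets asks whether fasting went with a different level of any of these receptors. Of the 6 subunit genes tested, 0 passed an adjusted p of 0.05 in fasted against fed libraries (limma, Benjamini-Hochberg over all 15097 genes; 0.00662% of all genes passed). At an unadjusted p under 0.05 there was 1, Gabra3, on the higher side. Gabra3 reached that level in 4 of 19 alternative settings and missed it in the others, which include TMM-type scaling, scaling to the pan-neuronal markers and a replicate block. Of all tested genes 9.94% reached that level, 6.72% higher and 3.22% lower in fasted libraries, and this split depended on the scaling: 1015 genes higher and 486 lower on TPM became 574 and 725 under TMM-type scaling. Log2 fold changes, computed on TPM with 1 added and so understated for low genes, were positive for 5 of the 6 and negative for Gabra5, with a median of 0.088. Over all tested genes 62.5% were positive, with a median of 0.031. Under TMM-type scaling 5 of the 6 and 51.3% of all genes were positive, and scaled to the pan-neuronal markers 4 of the 6 and 28.6% were. No test of the 6 genes as a set was made.

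Gabra3 differed by 0.18 in log2 (standard error 0.08, 95% interval 0.00047 to 0.35, limma, adjusted p = 0.50). It averaged 10.7 ± 0.88 TPM in fasted and 9.32 ± 0.42 TPM in fed libraries (SD, n = 3 each). Separation of this kind, with fasted above fed, was found in 12.7% of all tested genes. Without fed replicate 2 the difference was 0.15, without fasted replicate 2 it was 0.12, and scaled to the pan-neuronal markers it was 0.098.

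Gabrg1 differed by 0.15 (standard error 0.11, interval -0.11 to 0.41, limma, adjusted p = 0.63), with means of 28.8 ± 3.75 TPM in fasted and 25.9 ± 3.0 TPM in fed libraries (SD, n = 3 each). The difference was 0.077 without fed replicate 2, 0.078 without fasted replicate 3, 0.23 without fed replicate 3 and 0.25 without fasted replicate 2, so it rests in part on single libraries. Gabra2 differed by 0.099 (standard error 0.06, interval -0.041 to 0.24, adjusted p = 0.55 in limma), by 0.015 when scaled to the pan-neuronal markers, by 0.15 without fed replicate 1 (unadjusted p = 0.036, adjusted p = 0.44 in limma) and by 0.064 without fed replicate 2. Gabrb2 differed by 0.078 (interval -0.15 to 0.30, adjusted p = 0.77 in limma), by 0.014 without fed replicate 2, by 0.0018 without fasted replicate 3 and by 0.13 without fed replicate 3.

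Gabra5 was the 1 tested gene with a lower mean in fasted libraries, 5.5 ± 0.34 TPM in fasted and 5.81 ± 0.29 TPM in fed ones (SD, n = 3 each). The log2 fold change of Gabra5 was -0.067 (interval -0.25 to 0.12, limma, adjusted p = 0.76). It was -0.029 without fasted replicate 2, -0.034 without fed replicate 1, -0.10 without fasted replicate 3 and -0.14 scaled to the pan-neuronal markers. Gabrb1 differed by 0.024 (interval -0.36 to 0.40, limma, adjusted p = 0.96), and the sign turned without fed replicate 2 (-0.069), without fed replicate 1 (-0.026) and without fasted replicate 1 (-0.013), while it was 0.17 without fed replicate 3. For Gabrg3 a fit without a filter on low values gave 0.34 (standard error 0.13, interval 0.037 to 0.65, limma, adjusted p = 0.69), and in that fit 7.86% of all genes had fasted libraries above fed ones without overlap.

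**Figure D2:**
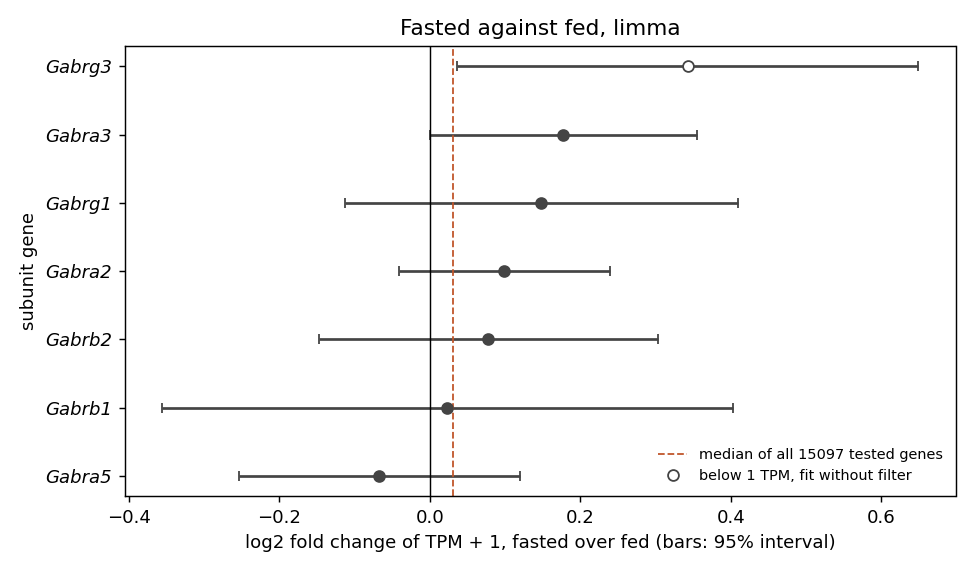
Log2 fold change of TPM + 1, fasted over fed, for each subunit gene (points) with its 95% interval from limma (bars), and the median of all tested genes as a dashed line. Gabrg3, below 1 TPM, is from the fit without a filter (open point), and the intervals of Gabrg1, Gabra2, Gabrb2, Gabrb1 and Gabra5 include 0.

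The neurons of the preparation are the background of these values. The 14 pan-neuronal markers had positive log2 fold changes in 14 of 14, with a median of 0.078, and 0 passed (limma, adjusted over all genes; 1 had an unadjusted p under 0.05). Their sum ran from 21724 to 22771 TPM in fasted and from 19712 to 21917 TPM in fed libraries. Over all tested genes, 62.5% had positive fold changes, 9.94% had an unadjusted p under 0.05 and 0.00662% passed. In such bulk samples fewer cells of a type and less RNA per cell cannot be told apart, and the part of the neuronal share in the subunit values was not tested beyond the scaling to these markers. Of the large mechanoreceptor and proprioceptor markers, Pvalb is also on the skeletal muscle list, and it was at 542.9 TPM in fed replicate 2 against 197.4 to 234.9 TPM in the other 5 libraries. The other 9 summed to 2521 to 2809 TPM in fasted and 2463 to 2708 TPM in fed libraries, lowest in fed replicate 2; with Pvalb the sums were 2718 to 3044 TPM in fasted and 2855 to 3006 TPM in fed libraries. Both versions overlapped between the diets, as did peptidergic markers (3745 to 3944 TPM in fasted and 3577 to 4473 TPM in fed libraries) and non-peptidergic markers (700.4 to 757.1 TPM in fasted and 691.7 to 782.8 TPM in fed libraries). C-fibre low-threshold markers summed to 314.4 to 338.4 TPM in fasted and 293.4 to 324.9 TPM in fed libraries, and 1 of the 5 listed was not matched.

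Among other cell types, satellite glia (5861 to 6085 TPM in fasted and 5839 to 6624 TPM in fed libraries) and Schwann cells (7695 to 8549 TPM in fasted and 7414 to 8283 TPM in fed libraries) overlapped. Macrophage markers summed to less in fasted libraries, 56.8 to 72.8 TPM against 85.6 to 103.9 TPM in fed ones. Endothelial markers did so too, with 127.2 to 141.6 TPM in fasted and 156.8 to 190.8 TPM in fed libraries. The sum of fibroblast and pericyte markers was also lower, with 1776 to 1920 TPM in fasted and 1951 to 2029 TPM in fed libraries. Most of that sum was Apod, which averaged 976.9 TPM in fasted and 1109 TPM in fed libraries. The list as a whole was mixed, with 4 positive and 6 negative log2 fold changes and a median of -0.019. Erythrocyte markers summed to more, 1715 to 3277 TPM in fasted and 1284 to 1564 TPM in fed libraries. In none of these lists did a member pass the adjusted threshold (limma). At an unadjusted p under 0.05, 7 of 10 macrophage, 7 of 10 endothelial and 2 of 10 fibroblast and pericyte markers were lower in fasted libraries, where 3.22% of all genes were on TPM. At the same level 1 fibroblast and pericyte marker and 5 of 5 erythrocyte markers were higher, where 6.72% of all genes were. These shares of all genes change with the scaling, with 1213 genes lower and 173 higher when scaled to the pan-neuronal markers. Their part in the subunit values was not tested. Markers of spinal inhibitory neurons and oligodendrocytes, which could carry GABA genes from the cord, summed to 1.15 to 1.93 TPM in fasted and 1.05 to 1.33 TPM in fed libraries.

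As a pool, the 7 genes summed to 76.4, 72.7 and 81.2 TPM in fasted libraries and 71.9, 65.2 and 74.0 TPM in fed ones. The groups overlapped, with the lowest sum in fed replicate 2 (exact permutation p = 0.2, two-sided; the smallest p that 3 against 3 allows is 0.1). The alpha genes made up 49.4% ± 2.78 of the pool in fasted and 50.3% ± 3.08 in fed libraries (SD, n = 3 each). The gamma genes made up 38.7% ± 2.76 in fasted and 37.4% ± 2.35 in fed libraries, and the beta genes 11.9% ± 0.48 in fasted and 12.3% ± 0.75 in fed ones.

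Within the pool, 2 of the 10 shares compared did not overlap between the diets. The shares are tied to each other, since those of the 7 genes make up the whole pool. In TPM, Gabra5 did overlap, at 5.16 to 5.84 TPM in fasted and 5.55 to 6.12 TPM in fed libraries. Gabra5 held 7.20%, 7.10% and 7.19% of the pool in fasted libraries and 8.50%, 8.82% and 7.5% in fed ones. Gabrg3 held 0.81%, 1.65% and 1.08% in fasted libraries and 0.71%, 0.65% and 0.72% in fed ones. Both had the smallest p the design allows (exact permutation p = 0.1, two-sided), and an adjusted p of 0.5 over the 10 shares compared. The mean share of Gabra5 differed by -1.11 percentage points and that of Gabrg3 by 0.49, fasted minus fed, and no share passed. Gabrg1 was the largest share in every library, at 33.8% to 39.6% in fasted and 35.1% to 39.4% in fed libraries.

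**Figure D3:**
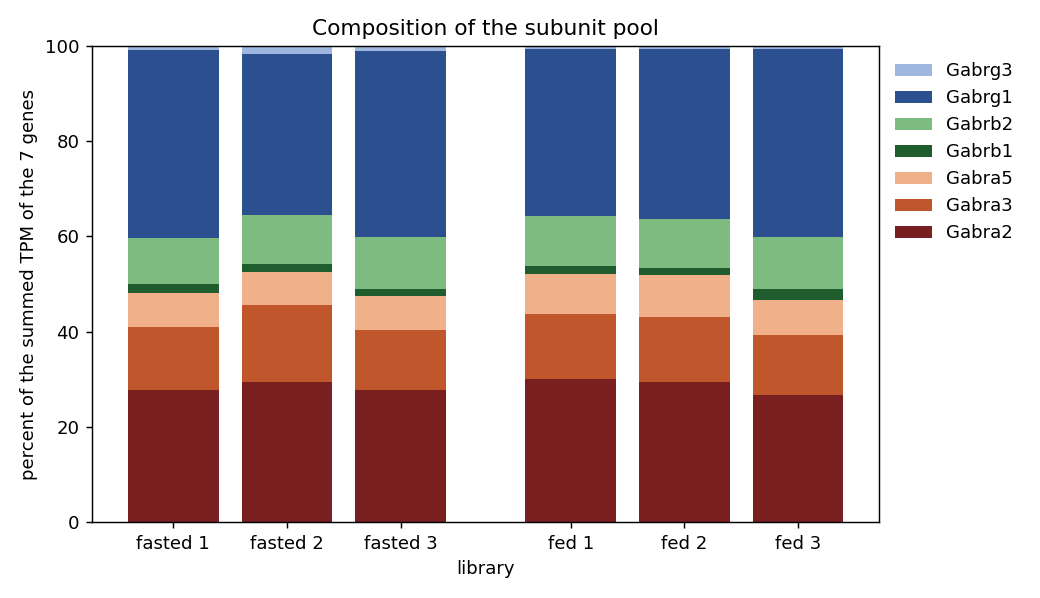
Percent of the summed TPM of the 7 genes held by each gene (stacked bars) in the 3 fasted and the 3 fed libraries. Gabrg1 and Gabra2 hold most of every bar, and the Gabra5 segment is 7.10% to 7.20% in fasted and 7.5% to 8.82% in fed libraries.

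Transcripts were compared next, since the table gives TPM per transcript. Of the 26 transcripts of the 7 genes, 11 had a mean of at least 1 TPM and 0 of them passed (limma, adjusted over 33197 transcripts; 0.0271% of all transcripts passed). None had an unadjusted p under 0.05, where 7.21% of all transcripts did. Log2 fold changes were positive for 7 of the 11, with 57.5% positive over all transcripts. The smallest p was that of Gabra3-201, the main coding transcript of Gabra3, at 8.77, 10.3 and 9.17 TPM in fasted and 7.62, 6.91 and 8.73 TPM in fed libraries (log2 fold change 0.25, limma, adjusted p = 0.67). Its groups did not overlap, nor did those of Gabrb1-201, and the same held, with fasted above fed, in 9.38% of all transcripts.

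Gabrg1 was split between both coding transcripts in nearly constant proportion. Gabrg1-201, which codes for the whole subunit, took 55.8%, 58.1% and 58.8% of the gene in fasted libraries and 62.1%, 57.0% and 56.6% in fed ones. Gabrg1-203, which lacks the 123 bases printed in capitals above, took 37.9%, 39.5% and 37.7% in fasted libraries and 37.3%, 40.9% and 43.4% in fed ones. The shares overlapped between the diets (exact permutation p = 0.8 for Gabrg1-201 and 0.4 for Gabrg1-203). In TPM, Gabrg1-203 averaged 11.0 ± 1.17 in fasted and 10.5 ± 1.85 in fed libraries (SD, n = 3 each).

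Gabra2 was likewise split, into 2 parts of similar size. Gabra2-203, with the full coding sequence, took 45.1%, 46.5% and 44.6% of the gene in fasted libraries and 48.0%, 45.2% and 54.4% in fed ones. Gabra2-204, which lacks the 61 bases printed in capitals above and is annotated as a decay target, took 40.8%, 42.9% and 48.8% in fasted libraries and 40.8%, 45.9% and 35.5% in fed ones. These shares overlapped too (exact permutation p = 0.2 for Gabra2-203 and 0.5 for Gabra2-204). A non-coding transcript, Gabra2-206, took 5.60% ± 1.18 in fasted and 6.94% ± 1.18 in fed libraries (SD, n = 3 each).

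What sets the shorter transcript of each pair apart in sequence is short. Of the 3837 stretches of 31 bases in Gabra2-204, 28 occur in no other annotated transcript of the gene, and of the 3477 in Gabrg1-203, 29 do. The full transcripts have more of their own, 1948 of 5822 in Gabra2-203 and 1031 of 4741 in Gabrg1-201. The full transcripts also differ at their ends: Gabra2-203 has 40 more bases at the 5′ end and 1884 at the 3′ end, and Gabrg1-201 has 413 and 728. The annotated coding part of Gabrg1-203 begins at its first base, so its 5′ end may be incomplete. The shares are the authors' estimates from reads that are mostly shared, and the part of the transcript ends in the split was not tested.

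**Figure D4:**
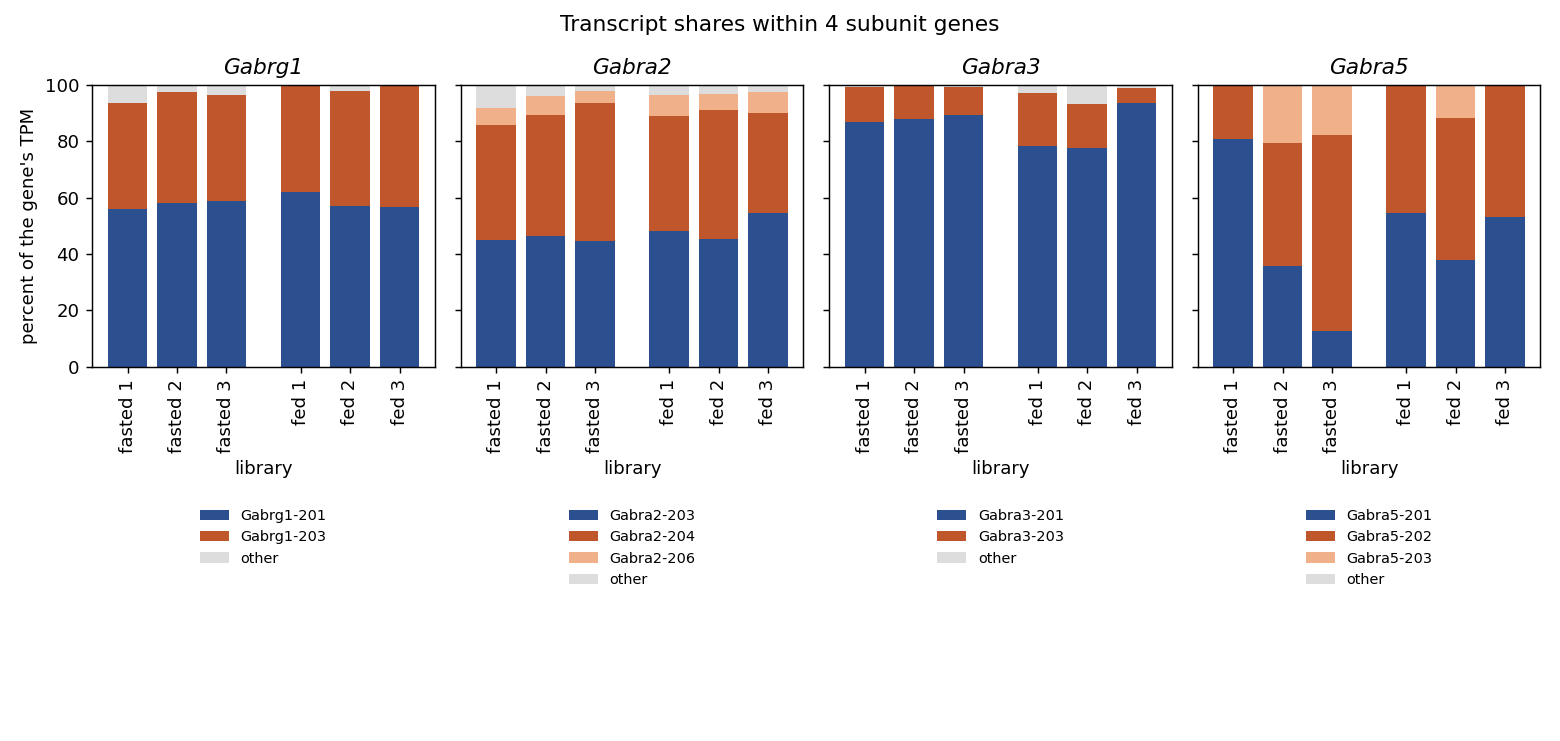
Percent of a gene's TPM given to each of its transcripts (stacked bars; grey, transcripts with under 5% on average) in the 3 fasted and the 3 fed libraries, for Gabrg1, Gabra2, Gabra3 and Gabra5. The split of Gabrg1 is nearly the same in all 6 libraries, while Gabra5-201 runs from 12.6% to 80.9% within the fasted libraries.

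Gabra5 showed the opposite picture, a steady gene total over unsteady transcript estimates. Its 3 transcripts have the same coding length of 1389 bases and differ outside it. Gabra5-201 took 80.9%, 35.9% and 12.6% in fasted libraries and 54.6%, 38% and 53.2% in fed ones. Gabra5-202 took 19.1%, 43.5% and 69.5% in fasted libraries and 45.4%, 50.3% and 46.8% in fed ones. For both of these, the fasted libraries spread on both sides of the fed ones (exact permutation p = 0.9 for Gabra5-201 and 0.7 for Gabra5-202). Gabra5-203 took 0%, 20.7% and 17.9% in fasted libraries and 0%, 11.7% and 0% in fed ones (exact permutation p = 0.4). The gene as a whole stayed between 5.16 and 6.12 TPM.

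The remaining genes had 1 dominant transcript. Gabra3-201 took 88.1% ± 1.36 of Gabra3 in fasted and 83.2% ± 9.06 in fed libraries (SD, n = 3 each; exact permutation p = 0.4). The non-coding Gabra3-203 took 11.4% ± 1.33 in fasted and 13.2% ± 7.0 in fed libraries. Gabrb2-201 took 96.5% ± 0.82 of Gabrb2 in fasted and 93.9% ± 5.67 in fed libraries. Gabrb1-201 took 89.8%, 100% and 100% of Gabrb1 in fasted libraries and 100%, 100% and 65.2% in fed ones. The rest of Gabrb1 was Gabrb1-202, whose annotated start overlaps Gabra4, and it held 0.59 of the 1.70 TPM of Gabrb1 in fed replicate 3. Adjusted over the 12 shares compared, the smallest p was 0.96.

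Among transcripts below 1 TPM, which were not tested in that fit, Gabrg1-202, a spliced form annotated with a retained intron, was at 1.90, 0.60 and 1.11 TPM in fasted libraries and 0.14, 0.48 and 0 TPM in fed ones. Without a filter its log2 fold change was 0.85 (limma, adjusted p = 0.81). Gabrg3-202, the full Gabrg3 transcript, was at 0.51, 0.76 and 0.53 TPM in fasted libraries and 0.38, 0.33 and 0.35 TPM in fed ones. Of all transcripts in the fit without a filter, 5.14% had fasted libraries above fed ones in this way. Gabra3-202 was the reverse, at 0.088, 0 and 0.063 TPM in fasted libraries and 0.291, 0.617 and 0.094 TPM in fed ones, with all fasted values below all fed ones, as in 4.18% of all transcripts, and with the closest values near 0.

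The other subunit genes listed were at or below the limit for testing, and further members of the family were not analysed here. Gabrd, the delta subunit of receptors outside synapses, was at 0.89, 1.35 and 0.95 TPM in fasted libraries and 0.85, 0.66 and 0.98 TPM in fed ones. Gabra4, a usual partner of delta in the brain, was at 0.87, 1.13 and 0.84 TPM in fasted libraries and 0.76, 0.81 and 1.15 TPM in fed ones. Both overlapped between the diets. The epsilon gene Gabre averaged 0.28 TPM in fasted and 0.26 TPM in fed libraries, and the rho genes Gabrr1, Gabrr2 and Gabrr3 between 0.11 and 0.23 TPM in fasted and between 0.14 and 0.24 TPM in fed libraries. Gabrq (theta) averaged 0.06 TPM in fasted and 0.10 TPM in fed libraries, Gabrp (pi) 0.01 TPM in fasted libraries with 0 listed in fed ones, and Gabra6 was listed at 0 in all 6. Together these 9 genes summed to 2.41 to 3.62 TPM in fasted and 2.48 to 3.03 TPM in fed libraries.

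The genes that make, place and modulate GABA-A receptors were read from the same fit. Of 24 genes of assembly, trafficking and anchoring, all were tested, 19 had positive and 5 negative fold changes, and 0 passed in either direction (limma, adjusted over all genes; 1 had an unadjusted p under 0.05). Their median log2 fold change was 0.037, against 0.031 over all genes. Of all tested genes 62.5% had positive fold changes, 9.94% had an unadjusted p under 0.05 and 0.00662% passed. Clptm1, which holds GABA-A subunits in the endoplasmic reticulum, averaged 123.7 ± 5.45 TPM in fasted and 111.6 ± 6.57 TPM in fed libraries (SD, n = 3 each; limma, adjusted p = 0.49). Kif5a, a kinesin that carries receptors, was at 451.1, 460.0 and 474.5 TPM in fasted and 425.8, 379.3 and 449.1 TPM in fed libraries, without overlap (limma, adjusted p = 0.50). Gabarapl1, a relative of the GABA-A receptor-associated protein, was the most abundant at 849.6 ± 15.3 TPM in fasted and 805.0 ± 27.7 TPM in fed libraries (limma, adjusted p = 0.53). Its groups did not overlap either, and 12.7% of all tested genes had fasted above fed in this way.

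Of 12 genes of GABA synthesis, breakdown and transport, 8 were tested and 0 passed, with a median of 0.041. Slc6a13, the GABA transporter GAT2, was at 5.53, 5.43 and 4.92 TPM in fasted libraries and 6.07, 7.22 and 6.46 TPM in fed ones. All 3 fasted libraries were below all 3 fed ones, as in 5.07% of all tested genes (log2 fold change -0.27, interval -0.47 to -0.062, limma, adjusted p = 0.48). Abat, the GABA transaminase that breaks GABA down, averaged 30.3 ± 0.81 TPM in fasted and 32.5 ± 1.25 TPM in fed libraries (SD, n = 3 each; limma, adjusted p = 0.52). Aldh9a1, an aldehyde dehydrogenase of the route from putrescine to GABA, averaged 46.1 ± 2.76 TPM in fasted and 44.1 ± 1.48 TPM in fed libraries.

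At the RNA level, Gabbr1, a subunit of the metabotropic GABA-B receptor, was far more abundant than any GABA-A gene described here. Receptor protein was not measured. Gabbr1 averaged 280.4 ± 2.72 TPM in fasted and 273.4 ± 12.2 TPM in fed libraries (SD, n = 3 each, limma, adjusted p = 0.73). Of the genes of GABA-B receptors and their KCTD auxiliary subunits, 6 were tested and 0 passed, with a median of -0.045. Kctd16 averaged 23.7 ± 1.04 TPM in fasted and 24.9 ± 1.46 TPM in fed libraries, and Kctd12b averaged 1.94 ± 0.42 TPM in fasted and 2.32 ± 0.04 TPM in fed libraries. Of 5 glycine receptor genes, relatives of the same family, only Glrb, the beta subunit, was tested, at 170.0 ± 10.2 TPM in fasted and 157.8 ± 12.9 TPM in fed libraries (limma, adjusted p = 0.57).

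Chloride cotransporters set the direction of the GABA response. Slc12a2 (NKCC1), which loads sensory neurons with chloride, was at 56.6, 58.1 and 63.7 TPM in fasted libraries and 55.7, 60.7 and 58.7 TPM in fed ones (limma, adjusted p = 0.88). Of 7 cotransporter genes 5 were tested and 0 passed (median -0.034). Slc12a7 averaged 12.5 ± 1.31 TPM in fasted and 13.3 ± 1.10 TPM in fed libraries, and Slc12a3 0.90 ± 0.32 TPM in fasted and 1.29 ± 0.51 TPM in fed (SD, n = 3 each).

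Endogenous modulators act on the subunit interfaces and the membrane segments. Dbi, the precursor of endozepines that bind the benzodiazepine site, was at 514.9, 498.7 and 526.3 TPM in fasted libraries and 527.1, 611.4 and 527.5 TPM in fed ones. The groups did not overlap, with fasted below fed, as in 5.07% of all tested genes (limma, adjusted p = 0.54). But their closest values were 526.3 TPM in a fasted and 527.1 TPM in a fed library. The highest value came from fed replicate 2, the library rich in muscle RNA. Akr1c14, which makes the neurosteroid allopregnanolone, averaged 2.74 ± 0.45 TPM in fasted and 3.76 ± 0.87 TPM in fed libraries (SD, n = 3 each; limma, adjusted p = 0.52). Fdxr, which passes electrons to the first enzyme of steroid synthesis, averaged 12.2 ± 0.33 TPM in fasted and 13.2 ± 0.74 TPM in fed libraries (limma, adjusted p = 0.53). Its groups did not overlap either, with fasted below fed. Of the 12 listed genes 9 were tested and 0 passed, with 4 positive, 5 negative and a median of -0.053. Over all tested genes 62.5% were positive.

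Across the 6 libraries the subunit genes did not vary as 1 block. Correlations of log2 values, given as a description over 6 libraries that share their scaling, ran from -0.60 for Gabra3 with Gabra5 to 0.78 for Gabrb2 with Gabrg1. Gabrg1 and Gabra2, neighbours on chromosome 5, had r = 0.44. The most alike genes were sought among the tested genes, leaving out predicted and clone names. Those most like Gabrg1 were Trappc6b (Pearson r = 0.992), Zbtb9 (0.992) and Yes1 (0.989). Those most like Gabra2 were Prmt1 (0.997), Lrriq3 (0.989) and Coro6 (0.988), and those most like Gabra3 were Bbs9 (0.994), Tppp (0.993) and Kcnk3 (0.989). With so few libraries such values are common: of the 13523 genes compared, 255 reached a correlation of 0.9 with Gabrg1, 398 with Gabra2 and 192 with Gabra3.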

How the data were processed

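RNA from neuron-enriched ganglion cells was measured in 6 libraries made, per the labels, with a stranded kit for polyadenylated RNA. The deposited values are TPM per transcript, computed by the authors, and each library sums to 1000000. The submitters' processing notes name Salmon 1.6.0, DESeq2 1.34.0, Trim Galore 0.6.6 and FastQC 0.11.9, and the builds GRCm38 and mm10. Their roles and the annotation release are not given in the sources used here. GENCODE M21 held 98.7% of the transcript versions and all 26 of those of the subunit genes.

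TPM was summed per symbol (102 symbols joined several gene identifiers), and genes or transcripts with a mean of at least 1 TPM were fitted as log2(TPM + 1) with limma 3.58.1 in R 4.3.3 (group as the only term, intensity trend, two-sided, Benjamini-Hochberg, threshold 0.05). No count test was run because TPM are not counts. Shares were compared by exact permutation tests. The fit was tested on simulated data. Figures used matplotlib 3.10.9 and alignments Biopython 1.88 (BLOSUM62, global).

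The members and lists were chosen with earlier results of these data known. All 7 members and 9 other subunits are named, with the 3 smallest p and the most abundant gene of each other list and the 3 genes most alike to each of the 3 most abundant members; Gabrg1-202, Gabrg3-202 and Gabra3-202 were named after their values were seen. One gene that this rule names is not reported here. Alternatives were other pseudocounts (0.1 and 0.5), filters, scalings, empirical Bayes settings, array weights, a replicate block and leaving out each library; the marker sum without Pvalb was added after seeing the data.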

Additional observations from a re-analysis of the deposited data

How the results depend on the processing

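The count of subunit genes past the threshold (0), of their transcripts (0), of transcript shares (0), of pool shares (0) and of pathway genes (0) was 0 under every alternative run, including each library left out (0 to 0); the share tests could not pass in any of them. Over all features, limma called 1 gene and 9 transcripts, and from 0 to 7 genes and 0 to 14 transcripts over the alternatives. Genes with an unadjusted p under 0.05 were 1015 higher and 486 lower on TPM, but 574 and 725 under TMM-type scaling and 173 and 1213 when scaled to pan-neuronal markers, which put the median of all genes at -0.050.

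Signs turned for the following genes and transcripts, none past the threshold. Gabrb1 was at -0.023 scaled to pan-neuronal markers, -0.0041 with array weights, and from -0.069 to 0.17 with 1 library left out. Scaled to pan-neuronal markers, Gabra3-203 was at -0.0075 and Gabrg1-203 at -0.011. With 1 library left out, Gabra2-203 ran from -0.095 to 0.045, Gabra3-203 from -0.22 to 0.24, Gabra5-201 from -0.77 to 0.055 and Gabra5-202 from -0.54 to 0.11; the cause was not tested. Leaving out 1 library also turned the sign of 7 of the 10 pool share differences and 6 of the 12 transcript share differences. Among the 3 pool shares that kept it were Gabra5 and Gabrg3. Their groups do not overlap, so leaving out 1 library could not have turned their sign.

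Same-numbered libraries deviated together only weakly (r = 0.093, 0.11 and 0.066), not all above 0.1, so the replicate numbers were not taken as pairs, although each library correlated best with its own number. With a replicate block 0 subunit genes and 0 transcripts passed, and Gabrg1 had the smallest p (0.039, limma, adjusted p = 0.43). TPM without depth limits what can be said of genes near 1 TPM, such as Gabrb1 and Gabrg3.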
